A study of Mus musculus with 4 samples.

Results

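The RNA-binding motif genes are a family of mouse genes whose proteins carry an RNA recognition motif and act on pre-mRNA and mRNA. Members were taken by name, as every symbol of the series-wide expression table that begins with Rbm followed by a digit, X or S, together with Cirbp, the closest relative of Rbm3. This gave 48 symbols of the 23439 kept from the table, and the 35 whose mean over the 4 libraries was at least 1 FPKM are described in detail. FPKM is fragments scaled to transcript length and library size, so levels can be compared between genes. The naming rule itself uses no measured value, but the family was chosen with earlier results of these data known.

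RNA was sequenced from hearts of mice aged 12 weeks, with 2 Tbx20_OE hearts and 2 control hearts. The Tbx20_OE hearts had the genotype alphaMHCMerCreMer+/-;CAGCATTbx20, in which a tamoxifen-regulated Cre recombinase under the alpha myosin heavy chain promoter of cardiomyocytes switches on a Tbx20 transgene. The control hearts had the genotype alphaMHCMerCreMer+/-, so all 4 hearts carried the same Cre, and the controls lacked the transgene. Tbx20 encodes a cardiac transcription factor of the T-box family. It was induced at 8 weeks of age, and the comparison asks what differs 4 weeks later. All 4 hearts, controls included, are recorded with this induction age and interval. The labels do not state how induction was done or whether the control mice were treated alike. Only the Cre is limited to cardiomyocytes: the RNA came from every cell type of the heart, so fewer cells of a type and less RNA per cell cannot be told apart. The labels give each library a heart of its own. The p-values rest on the spread between hearts of the same genotype, pooled in part over all tested genes.

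RNA recognition motif proteins bind short single-stranded stretches of RNA and decide which exons are joined, where a transcript ends, how stable it is and whether it is translated. In the heart the best known member is Rbm20, which represses exons of titin and of calcium-handling genes and whose mutation causes dilated cardiomyopathy in humans. Rbm24 and Rbm38 control splicing and mRNA stability during muscle differentiation. Rbm3 and Cirbp are the cold-inducible members: their transcripts accumulate when cells are cooled mildly and fall when cells are heated, the reverse of the heat shock proteins.

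Tbx20 itself was at 11.03 and 16.4 FPKM in the Tbx20_OE libraries and at 6.99 and 4.58 FPKM in the control libraries, with a log2 fold change of 1.11 and a standard error of 0.30 (limma, adjusted p = 0.848). Control replicate 2 stood apart from the others. Its Pearson correlation with the others, across genes, was 0.927 to 0.957, against 0.981 to 0.982 among the remaining libraries. The summed FPKM of 5 atrial markers was 239 and 132 in Tbx20_OE, and 128 and 3698 in control replicates 1 and 2. Endothelial markers, 4 genes, summed to 88.9 and 79.2 FPKM in Tbx20_OE, and 80.1 and 56.1 FPKM in control. The sum of 4 mesothelial markers was 2.01 and 2.20 FPKM in Tbx20_OE, and 2.17 and 26.0 FPKM in control. The summed FPKM of 6 cardiomyocyte markers lay between 31273 and 36950 in all 4 libraries. Libraries also differed by base composition: the rank correlation between a gene's GC content and its deviation from the 4-library mean was 0.45 in control replicate 2 and lay between -0.38 and -0.15 in the others, across tested genes. Across the members this correlation was 0.22 in control replicate 2, 0.21 in control replicate 1, and -0.16 and -0.27 in Tbx20_OE. The main values are therefore given also without control replicate 2, and the plot of fold changes shows this value for every member. The part of atrial tissue or base composition in the results was not tested. The number of reads behind the values is unknown.

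The family held 13 members below a mean of 1 FPKM. Rbm31y and Rbmxl2 were listed at 0 in every library, and Rbm11, Rbm44, Rbm46 and the antisense transcript Rbm46os had a mean below 0.05 FPKM. Rbm47, an intestinal and liver cofactor of RNA editing, averaged 0.200 FPKM. The antisense transcript Rbm3os, which starts inside the Rbm3 gene and which the naming rule also takes in, was at 0.207 and 0.0415 FPKM in Tbx20_OE and at 0.0791 and 0.301 FPKM in control. The members nearest to the limit from below were Rbm12b2 at a mean of 0.983 FPKM, Rbms3 at 0.970 FPKM and Rbm34 at 0.943 FPKM, and those nearest from above were Rbm48 at 1.62 FPKM and Rbm43 at 1.66 FPKM. Rbmx2 and Rbm41 completed the 13, at means of 0.798 and 0.757 FPKM.

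The 35 members at or above 1 FPKM spanned a mean of 1.62 to 68.5 FPKM. The muscle regulators Rbm38 and Rbm24 led the order with means of 68.5 and 52.9 FPKM, and were followed by Rbm39 at 39.5 FPKM, a splicing factor and transcriptional coactivator. Rbm3 and Cirbp came next with means of 33.6 and 30.4 FPKM, then Rbm42 at 22.5 FPKM, Rbm20 at 18.8 FPKM and Rbms2 at 18.5 FPKM. The library ranges of Rbm38 and Rbm24, the 2 highest members, did not overlap, since the lowest Rbm38 value was 58.7 FPKM and the highest Rbm24 value 57.8 FPKM. The ranges of Rbm39, Rbm3 and Cirbp overlapped one another, and so did those of Rbm42, Rbm20 and Rbms2, so the order within each of these trios is not larger than the spread between libraries. Summed over all 48 members, the family reached 458.5 and 483.8 FPKM in Tbx20_OE, and 435.8 and 428.7 FPKM in control.

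**Figure D1:**
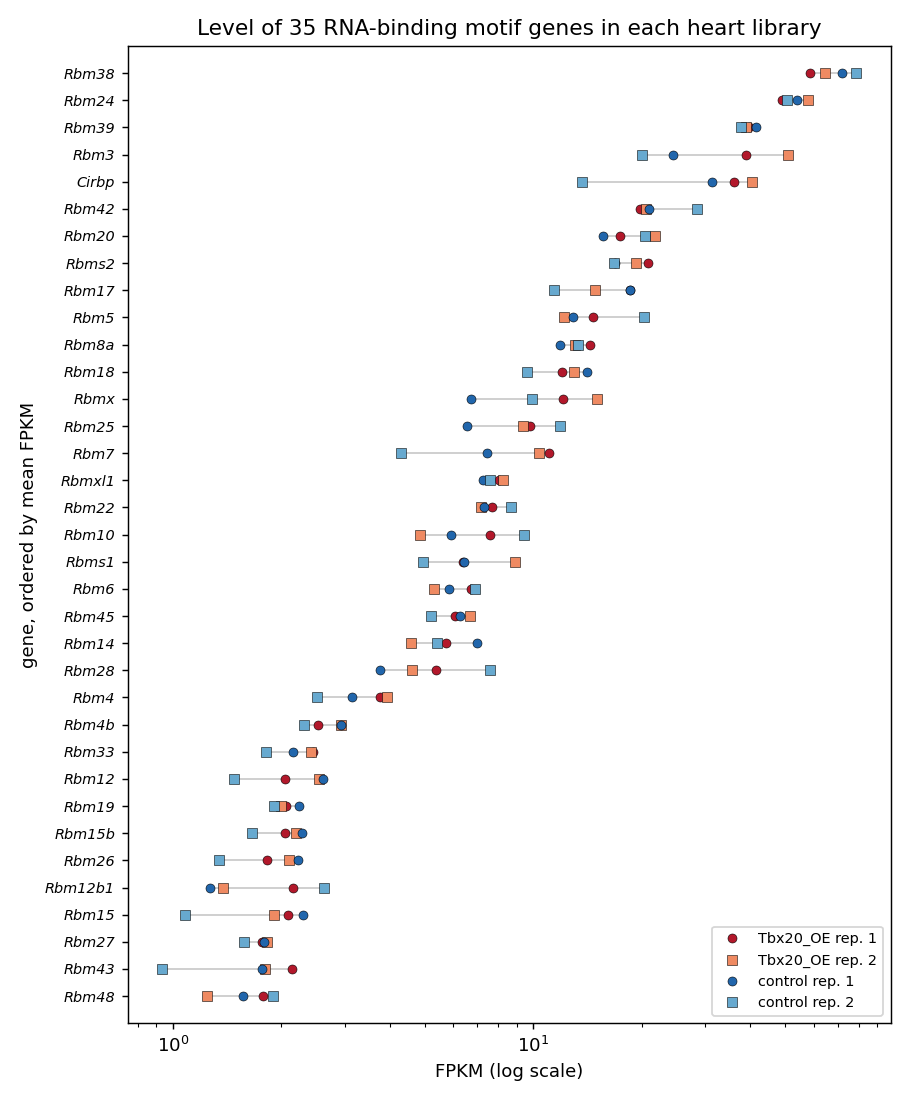
FPKM on a log scale of the 35 members with a mean of at least 1 FPKM, 1 row per gene ordered by mean, and 1 point per library (red and orange, Tbx20_OE; dark and light blue, control). Rbm38 and Rbm24 are highest, Rbm3 and Cirbp have widely spaced points, and Rbm39 and Rbmxl1 have points that nearly coincide.

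Differences between the genotypes were small for most members: 27 of the 35 differed by less than 1.2-fold. Single libraries differed more, and in 18 of the 35 the highest library was at least 1.5 times the lowest, up to 2.95 times for Cirbp. Fold changes are of FPKM + 1, so those of low genes come out too small. Differences were tested with limma over all 10513 genes of at least 1 FPKM, with Benjamini-Hochberg adjustment over all of them. No member passed (adjusted p from 0.848 to 0.991), where 0.0190% of all tested genes, which is 2 genes, were called higher and 0 were called lower. At an unadjusted p under 0.05 there were 2 members, Rbm3 and Rbm7, both with higher values in Tbx20_OE, against 1.06% of all tested genes on the higher side and 0.466% on the lower side.

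In 9 of the 35 members, or 25.7%, each Tbx20_OE value exceeded each control value, and the same was true of 28.1% of all tested genes. In 2 members, or 5.71%, each was below, against 4.77% of all tested genes. Either way these were 11 members, against 32.8%. These shares are close to the background, so the number of separated members says nothing about the family. Separated and at least 1.5-fold higher in Tbx20_OE were 4 members, or 11.4%, which held for 2.69% of all tested genes, and no member was separated and at least 1.5-fold lower, which held for 0.637%. The 4 were Rbm3, Cirbp, Rbm7 and Rbmx. Because the family was chosen with earlier results of these data known, the share of 11.4% describes it and tests nothing. The median log2 fold change was 0.10 over the members and 0.15 over all tested genes. When each library was centred on its own median, which moved every fold change down by 0.16, the median of the members was -0.06, with 11 positive and 24 negative, against 23 positive and 12 negative before. After centring 6 members were separated upward and 8 downward, against 10.3% and 14.1% of all tested genes.

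**Figure D2:**
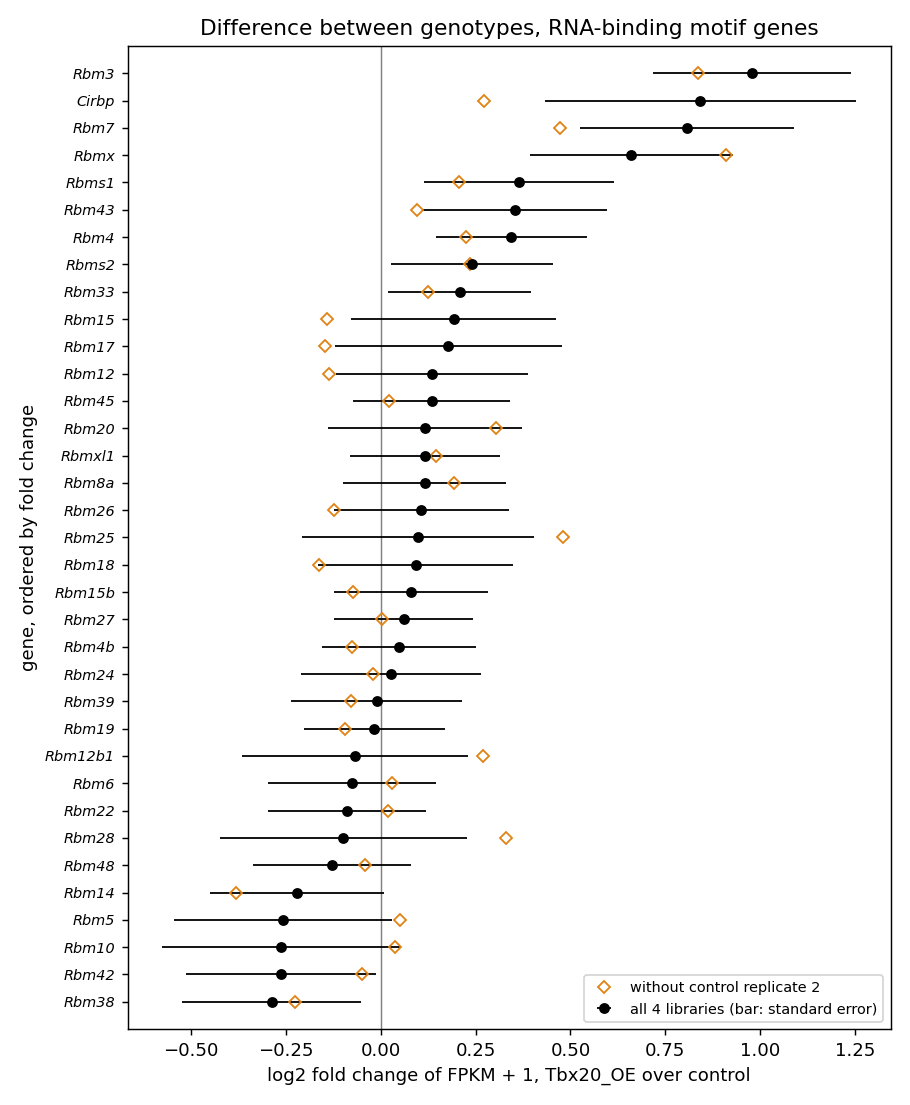
Log2 fold change of FPKM + 1, Tbx20_OE over control, for the 35 members, with the limma standard error (black), and the value without control replicate 2 (orange diamonds). Without that library Rbm3 keeps a value above 0.8 and Rbmx rises from 0.66 to 0.91, whereas Cirbp moves to 0.27.

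Rbm3, whose protein binds the large ribosomal subunit and is induced by mild cooling, showed the largest difference of the family. It was measured at 38.9 and 51.01 FPKM in the Tbx20_OE libraries, against 24.5 and 19.98 FPKM in the control libraries. All Tbx20_OE values lay above all control values, and both control values were below the lower Tbx20_OE value by more than the gap between the controls. The means were 44.95 ± 8.56 FPKM in Tbx20_OE and 22.2 ± 3.19 FPKM in control (SD, n = 2 each). On the log2 scale the difference was 0.98 (standard error 0.26), with a 95% interval of 0.33 to 1.63, a 1.97-fold difference. This ranked 34th by p among the 10513 tested genes (limma, unadjusted p = 0.0112, adjusted p = 0.848), and an exact permutation test of 2 against 2 libraries cannot go below p = 0.333, the value it gave. Without control replicate 2 the log2 fold change was 0.84 (adjusted p = 0.780), after median centring it was 0.82, and with values corrected for GC content it was 0.68.

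Cirbp, which guides splicing and the choice of polyadenylation site and is likewise cold-induced, was at 36.01 and 40.3 FPKM in Tbx20_OE and at 31.4 and 13.7 FPKM in control. The control libraries differed from each other by more than the group means did, and control replicate 2 was 0.381 times the mean of the other 3 libraries. The means were 38.2 ± 3.07 FPKM in Tbx20_OE and 22.6 ± 12.6 FPKM in control (SD, n = 2 each). On the log2 scale the difference was 0.84 (standard error 0.41), with an interval of -0.18 to 1.87 (limma, adjusted p = 0.848). It was 0.27 without control replicate 2, where the Tbx20_OE libraries still lay above control replicate 1. Cirbp was the only member for which 1 library stood at least 2-fold away from all others.

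Without control replicate 1, when control replicate 2 is the lone control and its spread is taken to equal that of the Tbx20_OE libraries, 3 members passed the limma test: Cirbp (log2 1.41, adjusted p = 0.0184), Rbm3 (log2 1.12, adjusted p = 0.0320) and Rbm7 (log2 1.14, adjusted p = 0.0243). In that setting 11.4% of all tested genes were called higher and 2.26% lower, 1433 in all. Leaving out control replicate 2, no member passed, and 0.0571% of all tested genes were called higher and 0.152% lower. Leaving out either Tbx20_OE library likewise brought no member past the threshold.

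Rbm3 lies on chromosome X from 8138975 to 8145802 of mm10 and Cirbp on chromosome 10 from 80167841 to 80171653. Their coding sequences are alike at 72.8% of aligned bases. The first 150 bases of their longest GENCODE M21 coding sequences, which begin the RNA recognition motif, are shown. They tell how far reads of this pair can be told apart, and capitals mark the 40 positions at which they differ.
Rbm3: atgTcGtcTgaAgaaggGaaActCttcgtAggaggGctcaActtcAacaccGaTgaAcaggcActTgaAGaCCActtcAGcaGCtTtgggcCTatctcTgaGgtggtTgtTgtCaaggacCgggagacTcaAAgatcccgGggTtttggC
Cirbp: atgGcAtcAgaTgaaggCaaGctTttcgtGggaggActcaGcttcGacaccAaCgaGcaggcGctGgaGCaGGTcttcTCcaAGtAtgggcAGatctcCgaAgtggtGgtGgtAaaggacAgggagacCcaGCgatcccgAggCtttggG
No stretch of 50 bases of the Cirbp transcript was found in another gene, whereas 14.8% of those of the Rbm3 transcript were, mostly in the pseudogene Rbm3-ps, so Rbm3 values could include reads that match both. Rbm3 and Rbm3os overlap only from 8145427 to 8145802 of chromosome X. The counting is not stated to use strand, so reads of the pair from this stretch cannot be told apart. The highest value listed for Rbm3os in any library was 0.301 FPKM.

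RefSeq gives Cirbp a pair of promoter windows, each of 300 bases around a transcript start. The one shown is at chr10:80167589-80167888 on the plus strand of GRCm38.p6. It is shown because it holds TCCCCGCC, the mild cold responsive element described for this gene, in capitals. The other window, at chr10:80167921-80168220 on the same strand, held none of the motifs searched.
Cirbp promoter: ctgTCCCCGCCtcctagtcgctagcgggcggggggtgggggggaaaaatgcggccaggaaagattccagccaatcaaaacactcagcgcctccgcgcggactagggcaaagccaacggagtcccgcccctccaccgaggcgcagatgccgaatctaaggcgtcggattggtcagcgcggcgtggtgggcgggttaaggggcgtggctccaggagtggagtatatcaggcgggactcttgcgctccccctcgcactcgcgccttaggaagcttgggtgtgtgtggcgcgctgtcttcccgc
RefSeq gave no promoter window for Rbm3 or Rbm20, so neither was searched. The element was found on either strand in 4 of the 29 members of at least 1 FPKM that have a promoter window. These were Cirbp, Rbm19, Rbms1 and Rbmxl1, and 5.38% of all 32851 windows held it. The log2 fold changes of these 4 members were 0.84, -0.02, 0.36 and 0.12. The window of Rbm3os, which lies within the Rbm3 gene, also held TCCCCGCC. The T-box site AGGTGTGA was in none of the 29 members' windows and in 1.28% of all windows. CCAAT was in those of 15 of the 29, Cirbp among them, and in 37.4% of all windows. Members were counted by gene, with a match in any of their windows, and the background by single windows, so these shares are not measured alike. A match is a match of letters only, in these windows.

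Srsf5, an SR splicing factor also reported as cold-inducible in mouse, was at 52.9 and 83.3 FPKM in Tbx20_OE and at 28.95 and 48.2 FPKM in control (log2 0.81, standard error 0.37, adjusted p = 0.848). Its lower Tbx20_OE value was above its higher control value, and unlike Cirbp it was lowest in control replicate 1 and had a log2 fold change of 1.17 without control replicate 2. A heat shock list, made of 9 chaperone genes and of Hsf1, the heat shock factor that switches such genes on, had mostly negative values. Of the 10 genes 9 had a negative fold change and 7, Hsf1 among them, were separated downward, where 4.77% of all tested genes were. The exception was Hspd1, with a log2 fold change of 0.36, and of -0.10 without control replicate 2. Dnajb1 turned from -0.29 to 0.36 without that library. The median log2 value was -0.52, and -0.62 without control replicate 2. In the limma test 4 had an unadjusted p under 0.05, all lower in Tbx20_OE, against 0.466% of all tested genes. None passed after adjustment. Hspb1, a small heat shock protein, was at 356 and 333 FPKM in Tbx20_OE and at 600.1 and 704 FPKM in control (log2 -0.91, and -0.80 without control replicate 2). Any link between the values of the heat shock list and those of Rbm3, Cirbp and Srsf5 was not tested.

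**Figure D3:**
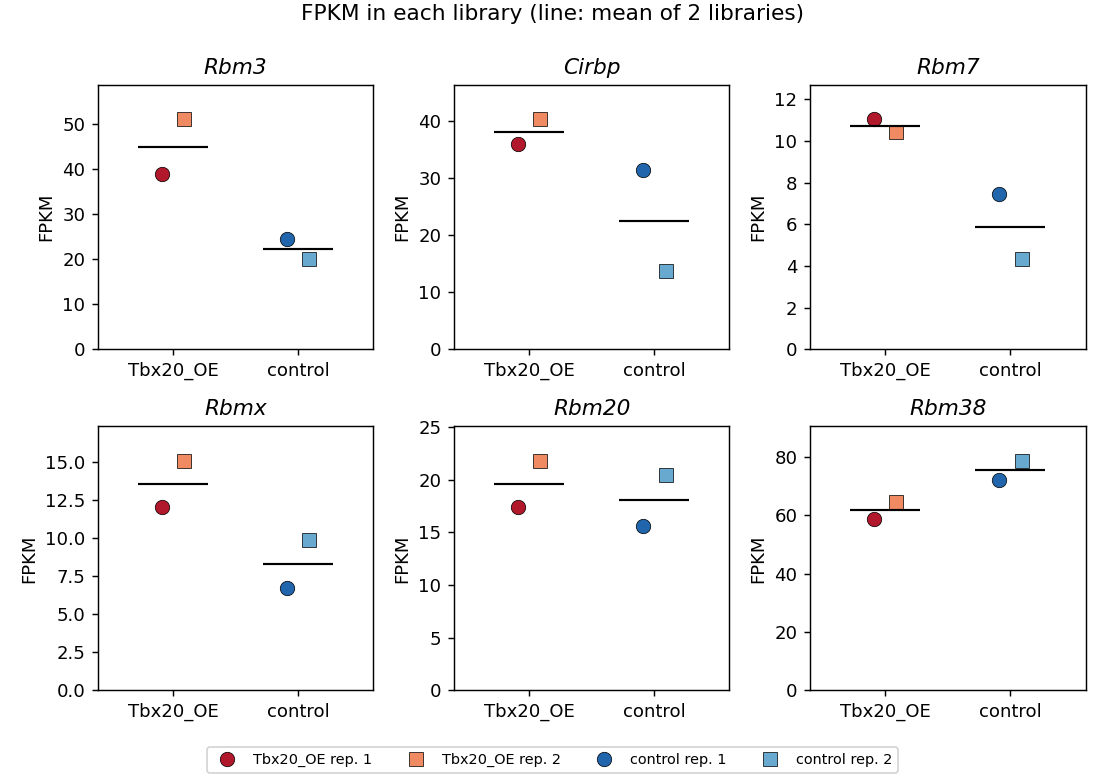
FPKM in each library for 6 members, with a zero-based axis per gene, Tbx20_OE left and control right, and a line at the mean of 2 libraries. Rbm3, Rbm7 and Rbmx are separated by genotype, Cirbp has 1 control library far below the other, Rbm20 overlaps, and Rbm38 is lower in Tbx20_OE.

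Rbm20, the titin splicing repressor, did not separate the genotypes. It was at 17.4 and 21.8 FPKM in Tbx20_OE and at 15.6 and 20.5 FPKM in control, so the groups interleaved. Its means were 19.6 ± 3.10 FPKM in Tbx20_OE and 18.05 ± 3.43 FPKM in control (SD, n = 2 each). The difference was 0.12 on the log2 scale (standard error 0.26, limma adjusted p = 0.912, exact permutation p = 0.667), and its 95% interval of -0.52 to 0.76 reaches past the difference of Rbmx. It was 0.30 without control replicate 2, and the sign turned to -0.04 after median centring and to -0.05 in the quantile-normalized values. Rbm20 lies on chromosome 19 from 53677306 to 53867080, and no 50-base stretch of its transcript was found in another gene.

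Gene-level FPKM does not measure splicing, so the transcripts that Rbm20 is known to splice were examined for level only. Of 20 such genes 17 had a positive and 3 a negative fold change, 4 were separated upward (Pdlim5, Ryr2, Camk2g and Cacna1c) where 28.1% of all tested genes were, and none passed the limma test, adjusted or not. Their median log2 fold change was 0.26, against 0.15 over all tested genes, and 0.11 without control replicate 2, in which 10 of the 20 had their lowest value. Ttn, which encodes the giant sarcomeric spring titin, was at 29.05 and 35.2 FPKM in Tbx20_OE and at 24.02 and 38.2 FPKM in control (log2 0.07, and 0.40 without control replicate 2). Camk2g, a calcium-dependent kinase, was at 7.57 and 9.09 FPKM in Tbx20_OE and at 6.29 and 6.79 FPKM in control (log2 0.30, standard error 0.21). Pdlim5, a Z-disc adaptor, was at 220 and 284 FPKM in Tbx20_OE and at 208 and 102 FPKM in control, with a log2 fold change of 0.78 that was 0.27 without control replicate 2. The 8 genes of the Srpk and Clk kinases, which phosphorylate serine- and arginine-rich splicing proteins, and of their importer Tnpo3 were split, 4 positive and 4 negative with a median of -0.02. The median turned to 0.18 without control replicate 2, the highest library for 5 of the 8. Srpk2 was the 1 gene of these 8 separated upward, at 4.42 and 4.96 FPKM in Tbx20_OE and at 4.03 and 3.62 FPKM in control.

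Rbm24, which activates muscle-specific exons and is needed for sarcomere assembly, was at 49.1 and 57.8 FPKM in Tbx20_OE and at 54.1 and 50.5 FPKM in control. The control values lay between the Tbx20_OE values. The log2 fold change was 0.03 (standard error 0.24, adjusted p = 0.978), and it was negative after median centring, in the quantile-normalized and in the GC-corrected values (-0.13, -0.08 and -0.10) and without control replicate 2 (-0.02). Its paralog Rbm38, a target of p53 that stabilizes the p21 transcript and regulates muscle differentiation, was at 58.7 and 64.4 FPKM in Tbx20_OE and at 72.1 and 78.6 FPKM in control. All Tbx20_OE values of Rbm38 were below all control values, and its means were 61.6 ± 3.99 FPKM in Tbx20_OE and 75.3 ± 4.60 FPKM in control (SD, n = 2 each). The Rbm38 log2 fold change was -0.29 (standard error 0.24, adjusted p = 0.848), and -0.23 without control replicate 2. Of 5 tested genes whose transcripts Rbm24 or Rbm38 are known to act on, 4 were positive and 1 negative, none was separated, and the median of 0.21 was 0.01 without control replicate 2.

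Rbmx, which encodes hnRNP G, a splicing regulator that also protects sister chromatid cohesion, was at 12.1 and 15.1 FPKM in Tbx20_OE and at 6.71 and 9.90 FPKM in control. The groups did not overlap, and here the lower control library was replicate 1. The means were 13.6 ± 2.13 FPKM in Tbx20_OE and 8.31 ± 2.26 FPKM in control (SD, n = 2 each), with a log2 fold change of 0.66 and a standard error of 0.27 (adjusted p = 0.848). It was 0.91 without control replicate 2 (adjusted p = 0.496), so the difference was larger without the library that stands apart, and 0.41 after GC correction. Its intronless relative Rbmxl1 was at 8.04 and 8.25 FPKM in Tbx20_OE and at 7.27 and 7.59 FPKM in control. These values were also separated, by a log2 fold change of 0.12 that became -0.04 after median centring.

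The pair is 90.9% identical in aligned coding sequence, and the first 150 coding bases are shown to make this visible, with the 13 differing positions in capitals.
Rbmx: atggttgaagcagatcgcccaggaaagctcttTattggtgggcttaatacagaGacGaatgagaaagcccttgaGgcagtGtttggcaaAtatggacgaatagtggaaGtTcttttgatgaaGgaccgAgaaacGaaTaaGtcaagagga
Rbmxl1: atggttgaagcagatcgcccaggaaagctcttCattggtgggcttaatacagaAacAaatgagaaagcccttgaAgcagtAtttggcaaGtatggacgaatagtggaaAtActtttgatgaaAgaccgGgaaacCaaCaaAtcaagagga
Of the 50-base stretches of the Rbmxl1 transcript 79.0% were found in another gene, most of them in Gm7324, against 0.981% for Rbmx. The Rbmxl1 level is therefore uncertain, since reads could be divided between copies, while that of Rbmx is little exposed to this.

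Among the remaining splicing factors of the family log2 fold changes lay between -0.26 and 0.34, but single libraries differed by up to 1.95 times, in Rbm10. Rbm39 had the narrowest range of the 35 members, at 39.7 and 38.96 FPKM in Tbx20_OE and at 41.6 and 37.8 FPKM in control (log2 -0.01). Rbm4, which promotes inclusion of tissue-specific exons, was separated upward at 3.77 and 3.92 FPKM in Tbx20_OE and at 3.15 and 2.51 FPKM in control (log2 0.34, standard error 0.20). Of its transcript 66.5% of the 50-base stretches also occur in another gene, Gm21992. For its neighbour Rbm4b, with a log2 fold change of 0.05, 50.5% were found in another gene. The values of both are therefore uncertain.

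Rbm5 and Rbm10 are related regulators of exon skipping that sit in early spliceosomes, and both had negative fold changes. Rbm5 was at 14.6 and 12.2 FPKM in Tbx20_OE and at 12.9 and 20.3 FPKM in control. Rbm10 was at 7.60 and 4.84 FPKM in Tbx20_OE and at 5.91 and 9.45 FPKM in control. In both genes the groups overlapped and control replicate 2 was highest, and the log2 fold changes of -0.26 for each became 0.05 and 0.04 without it. Of the 50-base stretches of the Rbm10 transcript 42.8% were found in another gene, so its level is uncertain. Rbm42, a splicing-associated partner of hnRNP K, was at 19.9 and 20.5 FPKM in Tbx20_OE and at 20.9 and 28.5 FPKM in control. It was separated downward, but its log2 fold change of -0.26 was -0.05 without control replicate 2, and 92.3% of the 50-base stretches of its transcript also belong to Gm21982. The core or accessory spliceosome members Rbm17, Rbm22, Rbm25, Rbm6 and Rbm48 overlapped between the genotypes, with log2 fold changes from -0.13 to 0.18, and from -0.15 to 0.48 without control replicate 2. Over the 13 splicing regulators of the family, muscle members apart, 6 were positive and 7 negative with a median of -0.01, and 8 were positive and 5 negative with a median of 0.03 without control replicate 2.

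The other heart splicing factors, 12 genes that include the Rbfox, Mbnl and Celf regulators of muscle exons, all had positive fold changes, with a median of 0.30 and 7 separated upward, where 28.1% of all tested genes were. Neither these genes nor any hnRNP or SR protein gene passed the limma test, adjusted or unadjusted. In 10 of the 12 control replicate 2 was lowest, and the median was 0.18 without it and 0.14 after median centring. The 23 hnRNP genes, abundant binders of nascent RNA, likewise were all positive, with a median of 0.37, against 0.15 over all tested genes. Of these 9 were separated upward, where 28.1% of all tested genes were. Median centring gave a median of 0.21 and turned Hnrnpa0, Hnrnph3, Hnrnpl and Hnrnpul2 negative. The hnRNP median was 0.10 without control replicate 2, which was the lowest library for 18 of the 23. Hnrnpa2b1, at 105 and 113 FPKM in Tbx20_OE and at 100.2 and 41.4 FPKM in control, shows this form. Of 12 tested SR proteins 10 were positive, with a median of 0.14, and 4 were separated upward, namely Srsf5, Srsf2, Srsf1 and Srsf3. The SR protein median was 0.26 without control replicate 2.

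**Figure D4:**
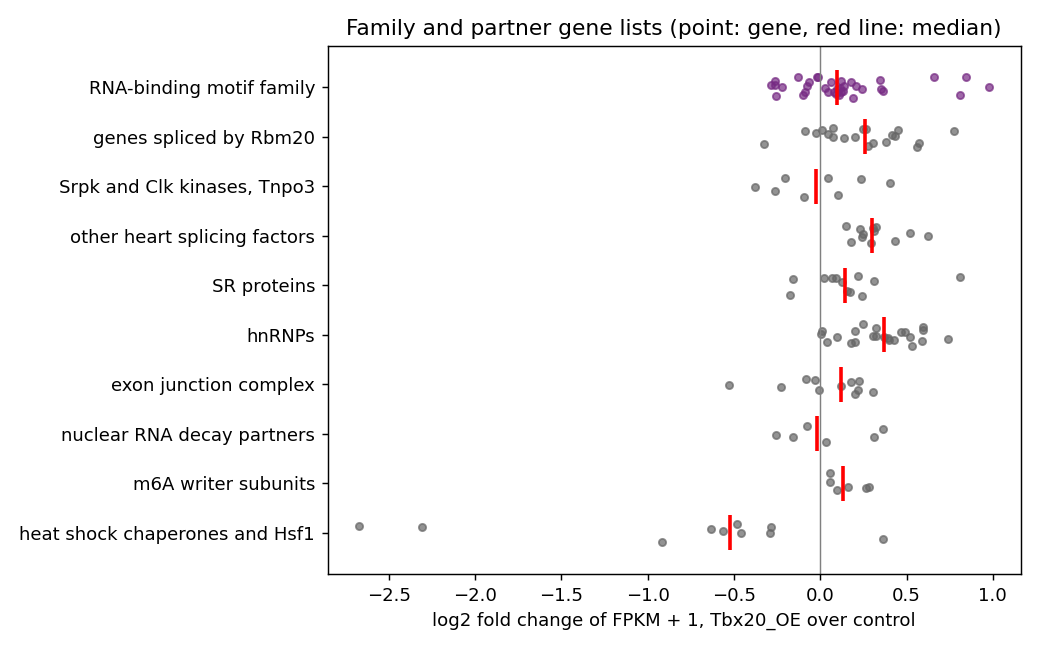
Log2 fold change of FPKM + 1, Tbx20_OE over control, for each tested gene of the family and of 9 partner lists, with a red line at the median of each. The family median is 0.10, that of the hnRNPs 0.37 and that of the heat shock list -0.52.

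Rbm7 is the RNA-binding subunit of the nuclear exosome targeting complex, which hands short-lived nuclear transcripts to the exosome. It was at 11.03 and 10.4 FPKM in Tbx20_OE, against 7.44 and 4.31 FPKM in control. The Tbx20_OE values were close together and above both controls, which differed from each other more. The means were 10.7 ± 0.434 FPKM in Tbx20_OE and 5.88 ± 2.21 FPKM in control (SD, n = 2 each), with a log2 fold change of 0.81 and a standard error of 0.28 (limma, unadjusted p = 0.0317, adjusted p = 0.848). It was 0.47 without control replicate 2 and 0.52 after GC correction. Genes of its complex and of the poly(A) tail exosome connection, 6 tested, were 3 positive and 3 negative with a median of -0.02, which turned to 0.16 without control replicate 2. In that second complex Rbm26 and Rbm27, which work there in human cells, had log2 fold changes of 0.11 and 0.06 with overlapping groups, and of -0.12 and 0.00 without control replicate 2.

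Rbm8a, known as Y14, is a core subunit of the exon junction complex that marks spliced mRNA. It was at 14.4 and 13.1 FPKM in Tbx20_OE and at 11.9 and 13.3 FPKM in control, and the groups overlapped. Its log2 fold change of 0.12 became -0.05 after median centring, -0.03 in the quantile-normalized values and -0.17 after GC correction, and it was 0.19 without control replicate 2. Its partner Magoh was at 44.4 and 41.2 FPKM in Tbx20_OE and at 37.4 and 36.8 FPKM in control (log2 0.20). Of 11 other genes of the complex and of nonsense-mediated decay, 6 were positive and 5 negative, with a median of 0.12 and of 0.08 without control replicate 2. Separated upward were 4 and downward 1, where 28.1% and 4.77% of all tested genes were.

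Rbm15 and Rbm15b recruit the m6A methyltransferase to RNA, and both were lowest in control replicate 2. Rbm15 was at 2.08 and 1.91 FPKM in Tbx20_OE and at 2.30 and 1.08 FPKM in control, and its log2 fold change of 0.19 was -0.14 without control replicate 2. The 6 tested subunits of the writer were all positive, with a median of 0.13, and of -0.03 after median centring. The writer median was -0.01 without control replicate 2, which was the lowest library for all 6. Rbm14, a paraspeckle protein and transcriptional coactivator, was at 5.73 and 4.59 FPKM in Tbx20_OE and at 6.98 and 5.39 FPKM in control. Its groups overlapped, with a log2 fold change of -0.22 that was -0.38 without control replicate 2. Rbm33 was separated upward by a small amount, at 2.45 and 2.42 FPKM in Tbx20_OE and at 2.15 and 1.81 FPKM in control (log2 0.21).

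Rbms1 and Rbms2 encode single-stranded nucleic acid binders first found at the Myc gene. Rbms2 was at 20.8 and 19.3 FPKM in Tbx20_OE and at 16.9 and 16.8 FPKM in control. Its groups were separated and the spread within each was small, and its log2 fold change of 0.24 (standard error 0.21, adjusted p = 0.848) was 0.23 without control replicate 2 and 0.08 after median centring. Rbms1 was at 6.38 and 8.92 FPKM in Tbx20_OE and at 6.42 and 4.95 FPKM in control, an overlap, with a log2 fold change of 0.36 and a standard error of 0.25, and of 0.21 without control replicate 2.

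The nucleolar members Rbm19 and Rbm28, which take part in ribosome assembly, had log2 fold changes of -0.02 and -0.10, and Rbm28 spanned 3.76 to 7.60 FPKM with both extremes in control libraries. Without control replicate 2 the values were -0.09 and 0.33. Rbm45, known from developing neurons, was at 5.21 to 6.67 FPKM (log2 0.13). Of the little described members Rbm43 was separated upward, at 2.14 and 1.80 FPKM in Tbx20_OE and at 1.77 and 0.935 FPKM in control (log2 0.35, and 0.09 without control replicate 2), while Rbm12, Rbm18 and Rbm12b1 overlapped, with log2 fold changes of 0.14, 0.09 and -0.07 that turned to -0.14, -0.16 and 0.27 without that library. Rbm12b1 shares 63.1% of its 50-base stretches with Rbm12b2, and 32.6% of those of the Rbm12 transcript were found in another gene.

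Control replicate 2 carried the extreme value of most members. It was the lowest library for 19 of the 35, or 54.3%, and the highest for 10, or 28.6%, and over all tested genes these shares were 54.3% and 25.5%, so the members' shares were at or near the background. Without it the median log2 fold change was 0.03 for the members and 0.08 for all tested genes.

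In the authors' deposited table, which compares the same hearts, Rbm3 was at 62.2 FPKM in Tbx20_OE and 37.1 FPKM in control, with a log2 fold change of 0.74, p = 0.0308 and q = 0.999, at a locus on chromosome X from 8138975 to 8147963 that takes in Rbm3os. In the authors' deposited table Rbm3 was the 1 member among the 61 genes selected as higher (p under 0.05, log2 fold change past 0.5 and FPKM over 3), which are 0.475% of the 12850 genes tested there, and no member was among the 114 selected as lower (0.887%). The authors' deposited table tested 40 members, of which 14 had a log2 fold change above 0 and 26 below, with a median of -0.17, against -0.01 for all genes tested there. Rbm7 and Rbmx had log2 fold changes of 0.50 and 0.41 in the authors' deposited table, and Rbm20 was at 31.8 FPKM in Tbx20_OE and 31.7 FPKM in control. Cirbp had 0.72 there with p = 0.839 in the authors' deposited table, at a locus from 79697305 to 80369637 on chromosome 10 that is likewise wider than the gene. Rbm24, Rbm8a and Rbmxl1 had negative log2 fold changes of -0.19, -0.25 and -0.02 in the authors' deposited table, where the fold changes from the library values above were positive. The same change of sign held for Rbm12, Rbm18, Rbm25, Rbm26, Rbm27, Rbm45 and Rbm4b. Their values in the authors' deposited table were -0.11, -0.26, -0.30, -0.17, -0.29, -0.03 and -0.09.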

How the data were processed

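Each heart gave 1 library from Trizol-extracted total RNA, per the labels' protocols. The tools TopHat2 2.0.13, Cufflinks 2.1.1, cuffdiff 2.1.1 and the mm10 build are named in the submitters' processing notes and file headers, while annotation and alignment options are not given in these sources. FPKM values were deposited by the authors as 1 table of the series and again as library files, and all 192 member values were equal in both. A quantile-normalized FPKM table, deposited by the authors, served as an alternative. The authors' deposited comparison table holds FPKM per condition, log2 fold changes, p-values and q-values from cuffdiff, and selection flags deposited as scores of 0 or 1.

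Depth is unknown: at most 0.551% of genes under 0.3 FPKM shared a ratio between libraries within 0.002 on the log2 scale, so no steps of whole reads were found. FPKM summed to between 452733 and 512225 per library. The genotype label defined the groups. Left out were 4 genes with a failed estimate and 1 gene not matched between the sources. Where a symbol was listed more than once, the entry with the highest mean was kept. The table held 487 such repeated entries, and the family had 49 entries for its 48 symbols. The limma 3.58.1 test with a mean-variance trend (R 4.3.3) was run on log2(FPKM + 1) for the 10513 genes with a mean of at least 1 FPKM, with the genotype as the only term and Benjamini-Hochberg adjustment at 0.05, and it was tested on simulated data. GC content, in 10 bins per library, and coding and shared sequence came from GENCODE M21, and promoter windows from RefSeq. Motifs were searched on both strands. Members given in every library were Rbm3, Cirbp and Rbm20, the 8 highest, those separated by at least 1.5-fold, the 5 largest and 5 most negative fold changes, known heart and muscle regulators, and their paralogs, with Rbm4, Rbm33, Rbm43 and Rbm15 added after their values were seen. Of each partner list, the most abundant gene and separated genes could be named, and Ttn was chosen after its values were seen. The members and lists were chosen with earlier results of these data known. Alternatives covered the pseudocount, filter, scaling, source, limma settings, blocking by replicate number and leaving out libraries. Python 3.11.15 with pandas 2.3.3 and matplotlib 3.10.9 did the rest.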

Additional observations from a re-analysis of the deposited data

How the results depend on the processing

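With 2 hearts a group and unknown depth, differences of the size of most members (median standard error 0.24 on the log2 scale) could not be detected. Of 272 recomputed log2 fold changes of 16 members under 17 settings, 248 kept their direction and side of the threshold, 21 changed sign and 3 newly passed, and 9 of the 16 members never changed sign. The cause of each change was not tested. Median centring gave -0.043 for Rbm20, -0.134 for Rbm24, -0.045 for Rbm8a, -0.043 for Rbmxl1 and -0.063 for the family median (0.098 as reported). The quantile-normalized values gave -0.049, -0.083, -0.029, -0.055 and -0.055 for the same 5. GC correction gave -0.096 for Rbm24, -0.168 for Rbm8a, -0.068 for Rbmxl1 and -0.142 for the family median. Median centring without control replicate 2, chosen after seeing the data, gave -0.112 for Rbm24, -0.062 for the family median and 45 genes called. The family median was 0.055 with a pseudocount of 5 and 0.054 with no filter. Genes called numbered 2 as reported and 1 with a pseudocount of 0.1, with no filter and with the per-library files. With 1 library left out, log2 fold changes ranged from 0.787 to 1.17 for Rbm3, 0.271 to 1.41 for Cirbp, -0.067 to 0.303 for Rbm20, -0.089 to 0.143 for Rbm24, -0.077 to 0.057 for Rbm39, -0.565 to 0.050 for Rbm5 and -0.560 to 0.037 for Rbm10. Over the same 4 fits the family median ranged from 0.029 to 0.124, members called from 0 to 3, separated members from 14 to 31 (11 as reported, and fewer samples make separation easier) and genes called from 6 to 1433. Only leaving out control replicate 1 brought members past the threshold, namely Cirbp, Rbm3 and Rbm7.

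The labels number the replicates of both genotypes, but nothing says that equal numbers mark a pair, and the deviations of same-numbered libraries correlated at -0.45. A replicate block called 6 genes, none of them a member, with an adjusted p of 0.999 for Rbm3. A crossed replicate block, chosen after seeing the data, called 30 genes, again no member, with adjusted p of 0.200 for Rbm3 and 0.374 for Cirbp.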
